A study of Mus musculus with 12 samples.

Results

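The AP-1 subunit genes are the 10 genes Fos, Fosb, Fosl1, Fosl2, Jun, Junb, Jund, Atf3, Batf and Batf3, and BMAL1 peaks were examined around them in control and senescent fibroblasts. A peak belonged to a gene when the nearest protein-coding start site to the centre of the peak was a start site of that gene (GENCODE release M21, mouse genome mm10, also called GRCm38). By this rule 92 of 35822 peaks belonged to these genes. Peaks of the 6 libraries that overlapped by at least 1 bp were merged into regions, and 36 of 16818 regions belonged to the 10 genes. At least 1 peak was found for 8 of the 10, whereas Batf and Batf3 had 0 peaks in every library. Across all 21864 protein-coding genes, 36.4% had a peak in any library.

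AP-1 is a family of dimers built from basic leucine zipper proteins of the FOS, JUN, ATF and BATF groups, which bind the sequence TGACTCA and close variants of it. Many of its genes are immediate-early genes, switched on within minutes by serum, stress or DNA damage, and AP-1 is known to shape the enhancers of senescent fibroblasts. BMAL1 pairs with CLOCK to form the activating arm of the circadian clock and recognises the E-box CACGTG.

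The cells were wild-type primary mouse adult fibroblasts (MAFs), grown per the study's methods from ear tissue of female C57BL6/J mice, all adult, and kept at 3% oxygen. The senescent group had been X-ray irradiated at a dose of 20 Gy and the control group sham irradiated. Per the study's methods, irradiated cells were kept in culture for weeks after the dose. Both groups were given 100 nM dexamethasone for 2 hours to synchronize their clocks and were collected 12 hours later, so every library was made from dexamethasone-treated cells at a single time point. Each group had 3 BMAL1-ChIP-seq libraries, and the labels do not say whether replicates were separate cultures or animals, so p-values measure only the spread between these libraries.

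The peak lists held 2794, 3349 and 10601 peaks in control replicates 1 to 3 and 4220, 9805 and 5053 in senescent replicates 1 to 3. Sequencing depth is unknown from peak lists, and a peak missing from a short list was not called there, which says nothing of whether BMAL1 was bound there. Peaks were therefore compared by rank within their own list, where rank 1 is the best score, or by that rank as a percent of the list. For scale, the best peaks of the clock genes Ciart and Per1 ranked 1 to 2 in all 6 lists, and that of Nr1d1 ranked 6 to 11. In each list, the best peak of any AP-1 subunit gene ranked between 651 and 1003, which was 8.94% to 25.9% of the way down its list.

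Sequences of 6 regions are shown because they are the only ones of the 36 that hold an E-box. They are on the forward strand of GRCm38, in lower case, with CACGTG and, in the Fosl1 and Fosb stretches, TGACTCA or its reverse complement TGAGTCA in capitals. The first 3 regions were called in every senescent and no control library, the next 2 in all 6 libraries, and the last in 2 control and no senescent libraries. Each is shown around its motifs, and in the Atf3 region the stretch runs over the 4 E-boxes.
Fosl1 intron, chr19:5448775-5448871: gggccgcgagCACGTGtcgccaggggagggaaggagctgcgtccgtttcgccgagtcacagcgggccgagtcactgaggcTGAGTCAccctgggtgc
Fosb upstream, chr7:19316868-19317016: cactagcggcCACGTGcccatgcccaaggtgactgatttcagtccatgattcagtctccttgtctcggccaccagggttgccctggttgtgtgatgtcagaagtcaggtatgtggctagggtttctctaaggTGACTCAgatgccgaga
Fosl2 far upstream, chr5:31968372-31968421: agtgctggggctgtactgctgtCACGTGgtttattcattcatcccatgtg
Atf3 upstream, chr1:191224476-191224774: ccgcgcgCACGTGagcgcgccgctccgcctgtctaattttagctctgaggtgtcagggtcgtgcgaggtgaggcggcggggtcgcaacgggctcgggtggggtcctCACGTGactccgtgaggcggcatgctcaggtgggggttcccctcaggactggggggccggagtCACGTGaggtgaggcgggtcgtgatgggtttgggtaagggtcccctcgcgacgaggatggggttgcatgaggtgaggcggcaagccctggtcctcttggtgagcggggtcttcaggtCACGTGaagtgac
Fos upstream, chr12:85455275-85455324: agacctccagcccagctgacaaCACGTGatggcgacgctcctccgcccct
Jun far upstream, chr4:95158571-95158620: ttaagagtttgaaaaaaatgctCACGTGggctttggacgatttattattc

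More of each senescent list than of each control list lay at these genes. Control replicates 1 to 3 held 5, 8 and 23 such peaks and senescent replicates 1 to 3 held 13, 28 and 15. As a share of the list this was 0.179%, 0.239% and 0.217% in control libraries, with a mean of 0.212% ± 0.0303 (SD, n = 3). In senescent libraries it was 0.308%, 0.286% and 0.297%, with a mean of 0.297% ± 0.0112 (SD, n = 3). The shares of the groups did not overlap, but the raw counts did. How often other lists of genes show the same order was not tested. No p-value is given for a score over a chosen list of genes. Among peaks with scores above their list's median, the difference between groups fell from 0.0852 to 0.0254 percentage points.

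The number of subunit genes with a peak was 3, 7 and 8 in control and 8, 8 and 7 in senescent libraries. The range of all protein-coding genes with a peak was 9.32% to 25.3% of genes in control and 14.4% to 26.5% in senescent libraries, and the longest control list (replicate 3) reached as many subunit genes as any senescent list. Fos, Junb and Atf3 had a peak in all 6 libraries, as did 14.1% of the 7950 genes with any peak. Fosb, Fosl2 and Jun had one in 2 control and 3 senescent libraries, Fosl1 in 1 and 3, and Jund in 2 and 2. A peak in more senescent than control libraries was thus found for 4 of 8 genes, against 45.8% of all genes with a peak, and in more control libraries for 0 of 8, against 25.7%. None of the 10 genes had a peak in every library of just 1 group, a pattern found for 4.08% of all genes with a peak on the senescent side and 1.37% on the control side. An exact permutation test of the calls, two-sided and over all 20 arrangements of 3 against 3, gave Fosl1 p = 0.4 and an adjusted p of 1 over all genes, and 0.1 is the smallest p it can give.

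**Figure D1:**
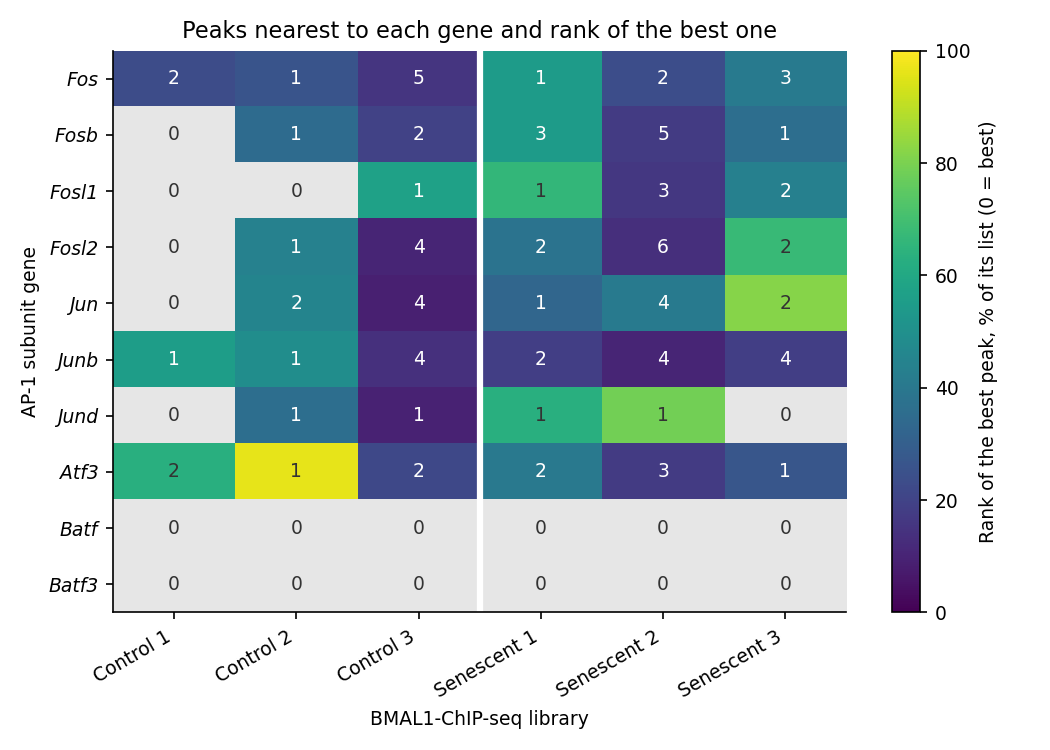
Heat map of the 10 AP-1 subunit genes (rows) in the 6 BMAL1-ChIP-seq libraries (columns), with the number of peaks printed in each cell and the colour giving the rank of the best peak as a percent of its list (0 is best, grey is no peak). Fos, Junb and Atf3 have a peak in every column, and Batf and Batf3 are grey throughout.

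Among the FOS genes, Fos itself, the classic immediate-early partner of JUN proteins, had 14 peaks in 5 regions. Its best peak in every library lay 18457 bp upstream of the start site in intergenic sequence (chr12:85455099-85455960) and held 1 E-box, 136 bp from the centre of the best peak. There the peak ranked 651, 867 and 1643.5 in control and 2310, 2302 and 2090.5 in senescent libraries, so every control library ranked it better. As a percent of the list the ranks were 23.3%, 25.9% and 15.5% in control and 54.7%, 23.5% and 41.4% in senescent libraries, and on this scale the groups overlapped. The means were 21.6% ± 5.41 and 39.9% ± 15.7 (SD, n = 3 each), a difference of 18.3 percentage points (exact permutation test, p = 0.2, adjusted p = 0.685 over the 1123 genes called in all 6 libraries). On the rank itself the difference was 1180 places (exact permutation p = 0.1, adjusted p = 0.265), and 19.4% of those genes were likewise ranked better in every control library. In percent of the list, 5.52% of those genes were ranked better in every control library. With the 2794 best peaks of every list only, the difference at Fos was 42.2 percentage points (exact permutation p = 0.1). Cutting the lists leaves these ranks unchanged, so this is the comparison of the rank itself on another scale. Whether the groups overlapped thus depended on how list length was treated.

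The Fos promoter was called less often. Within 1000 bp of its start site, the distance used here for a promoter peak, 2 control and 2 senescent libraries had a peak. These fell into separate regions, at -302 bp (control replicate 1 and senescent replicate 3) and at -88 bp (control replicate 3 and senescent replicate 2). The -302 bp region holds a CArG box, the site of serum response factor through which serum induces Fos, and so does the promoter region of Fosb at -305 bp, called in senescent replicates 1 and 2 only. Both are shown on the forward strand of GRCm38 with the CArG box in capitals.
Fos promoter, chr12:85473561-85473610: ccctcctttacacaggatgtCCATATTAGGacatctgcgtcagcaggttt
Fosb promoter, chr7:19310288-19310337: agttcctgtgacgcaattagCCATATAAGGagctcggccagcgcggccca
A CArG box was found in 5 of the 36 regions (13.9%), 2 at Fos, 1 at Fosb and 2 at Junb, against 2.34% of all regions.

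Fosb, a close relative of Fos, had 12 peaks in 5 regions. One of them, 6948 bp upstream in intergenic sequence (chr7:19316778-19317220), was called in all 3 senescent and no control libraries. Its ranks were 2310, 2289 and 1835.5, or 54.7%, 23.3% and 36.3% of the lists. The region holds 1 E-box and 2 AP-1 motifs, of which the printed stretch has the E-box and the AP-1 motif 1 bp from the centre, and the peaks of all 3 senescent libraries cover that pair. Regions at 8376 bp (2 control, 1 senescent library) and 975 bp (1 control, 2 senescent libraries) downstream of the start were shared between groups.

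Fosl1 encodes FRA-1, a FOS protein that lacks the transactivation domain of FOS, and had 7 peaks in 2 regions. The region in its intron, 1259 bp downstream of the start (chr19:5448478-5448955), was called in all 3 senescent libraries, at ranks 2798, 1594 and 2856 (66.3%, 16.3% and 56.5%), and in no control library. Its E-box lies 21 bp to one side of the centre and its AP-1 motif 49 bp to the other, 70 bp apart from start to start, and all 3 libraries have a peak over both. The second region, 2214 bp upstream, was called in control replicate 3 at 57.1% and in senescent replicates 2 and 3 at 21.5% and 43.6%.

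Fosl2, which encodes FRA-2, had 15 peaks in 7 regions, spread over the 267.3 kb for which its start site is the nearest. The region called most often lay in its intron 3877 bp downstream of the start (chr5:32139447-32140275). It was called in every library but control replicate 1, at 44.1% and 10.3% in control and 40.9%, 75.5% and 72.2% in senescent libraries, so the groups overlapped. A region 167421 bp upstream (chr5:31968202-31968558), inside an intron of Babam2, was called in all 3 senescent libraries at 38.0%, 67.4% and 67.3% and in no control library. Its E-box lies 14 bp from the centre. Whether a peak this far away acts on Fosl2 cannot be read from distance.

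**Figure D2:**
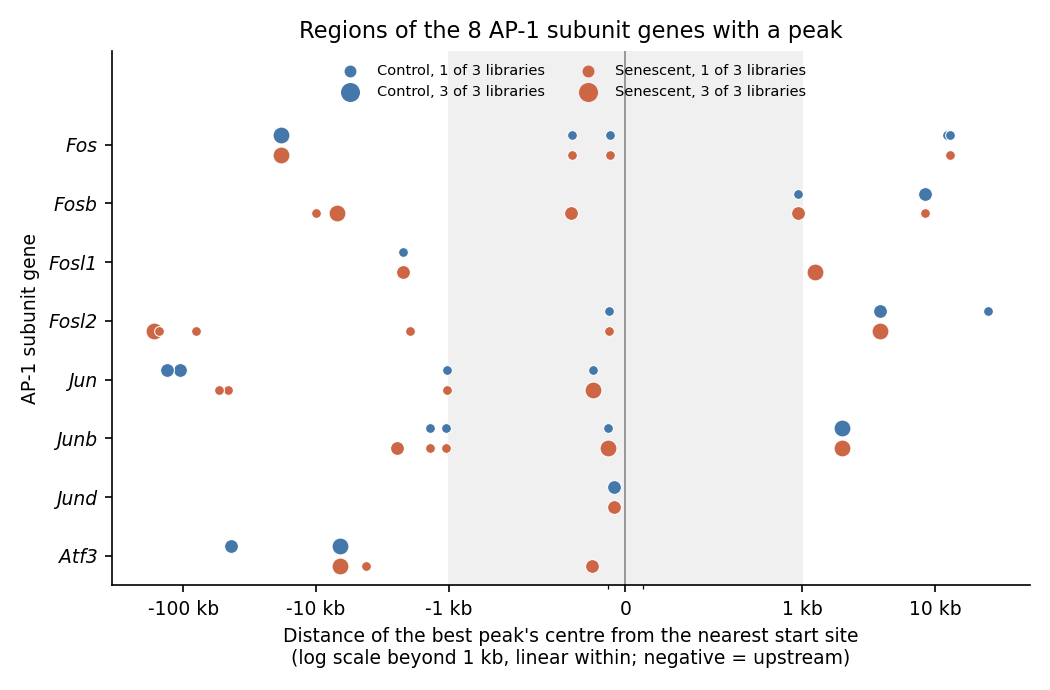
Position of the 36 regions relative to the nearest start site of their gene, as the distance of the centre of the best peak in bp (linear within 1 kb, log scale beyond, negative is upstream), with blue points for control and orange points for senescent libraries and the area growing with the number of libraries. The shaded band marks 1000 bp to either side, and the largest points in both colours are at Fos, Junb and Atf3.

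Among the JUN genes, the promoters of Jun and Junb were each called in 3 of 3 senescent libraries and in control replicate 3 only. This pattern was found for 3.35% of all regions, promoter or not, and the opposite one, 3 control and 1 senescent, for 0 member regions and 0.714% of all. Promoter peaks in general followed the lists too. Of all genes, 3.72%, 4.52% and 12.9% had one in control replicates 1 to 3. In senescent replicates 1 to 3 it was 7.15%, 16.7% and 8.38%. Jun encodes c-JUN, the strongest activator among the JUN proteins, and JUNB often opposes it. The Jun promoter region, 182 bp upstream (chr4:95052200-95052608) and within an intron of the antisense gene Junos, ranked 947.5 in control replicate 3, the best peak of any subunit gene in that list, and 1393, 4024 and 4126 in the senescent libraries. That was 8.94% of the list in control replicate 3 and 33.0%, 41.0% and 81.7% in senescent replicates 1 to 3, so the only control peak ranked better than each senescent one.

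At the Junb promoter, 100 bp upstream (chr8:84978526-84979159), the peak ranked 1545.5 in control replicate 3 and 783, 1003 and 936 in the senescent libraries. It was the best-ranked peak of any subunit gene in all 3 senescent lists. In percent of the list the values were 14.6% in control and 18.6%, 10.2% and 18.5% in senescent libraries. Neither promoter region holds an E-box. The 250 bases upstream of each RefSeq start (GRCm38.p6, minus strand) are shown because these were the promoters called in every senescent library, with the CCAAT box and, in Jun, the GC box (GGGCGG or its reverse complement) in capitals.
Jun promoter, chr4:95052223-95052472: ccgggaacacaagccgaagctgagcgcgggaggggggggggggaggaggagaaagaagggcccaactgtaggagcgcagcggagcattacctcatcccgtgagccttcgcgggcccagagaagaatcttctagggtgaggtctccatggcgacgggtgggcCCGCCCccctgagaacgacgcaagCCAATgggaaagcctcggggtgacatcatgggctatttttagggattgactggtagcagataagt
Junb promoter, chr8:84978749-84978998: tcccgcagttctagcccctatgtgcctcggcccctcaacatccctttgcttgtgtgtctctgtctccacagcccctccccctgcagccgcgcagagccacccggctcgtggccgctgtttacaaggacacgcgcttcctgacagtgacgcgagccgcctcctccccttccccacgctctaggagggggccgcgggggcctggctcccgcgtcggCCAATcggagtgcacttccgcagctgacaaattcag
CCAAT, the NF-Y motif, is present in 37.4% of all RefSeq promoter sequences and GGGCGG in 35.7%, searched on both strands from 250 bases before to 50 after the start.

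Junb had 16 peaks in 5 regions, the most peaks of the 10 genes. A second Junb region, 2011 bp downstream of the start (chr8:84976220-84976833), was called in all 6 libraries. Its centre lies 203 bp past the end of the protein-coding transcript but within the longer annotated gene. The ranks were 55.5%, 49.0% and 37.7% in control and 42.4%, 96.5% and 48.1% in senescent libraries, with means of 47.4% ± 9.0 and 62.3% ± 29.7 (SD, n = 3 each; exact permutation test, p = 0.7, adjusted p = 0.883 over 1106 regions). Taking the best peak of Junb in each library, control libraries averaged 39.4% ± 22.5 and senescent libraries 15.8% ± 4.80, differing by -23.7 percentage points (exact permutation p = 0.3, adjusted p = 0.689, where 0.1 is the smallest p possible). This compared different sites. The best peak was in the region at 2011 bp in control replicates 1 and 2 and at -1379 bp in control replicate 3. In every senescent library it was at the promoter. With the 2794 best peaks of every list the difference was -23.0 (exact permutation p = 0.1), which restates the rank itself and is not a separate test. The rank itself of the best peak, at whichever site, was better in every senescent library (1550 ± 90.8 against 907 ± 113, n = 3 each, exact permutation p = 0.1, adjusted p = 0.265), as it was for 18.3% of genes called in all 6. A region 2462 bp upstream was called in senescent replicates 2 and 3 only.

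Jun also held 2 of the 3 subunit regions called in at least 2 control and no senescent libraries. At 106449 bp upstream (chr4:95158551-95158876), in an intron of the antisense gene Junos, control replicates 2 and 3 had a peak at 88.8% and 43.6% of their lists over 1 E-box. At 133485 bp upstream the same libraries had one at 45.0% and 38.3%. Jund, the most constantly expressed JUN gene, had 4 peaks in 1 region at -64 bp, ranked at 36.3% and 9.71% in control replicates 2 and 3 and at 63.1% and 78.6% in senescent replicates 1 and 2. Both control values were better, with 1 library of each group lacking the peak. RefSeq places the start of Jund 1210 bp further upstream than GENCODE, and by RefSeq the centre of this peak lies 1146 bp inside the gene.

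**Figure D3:**
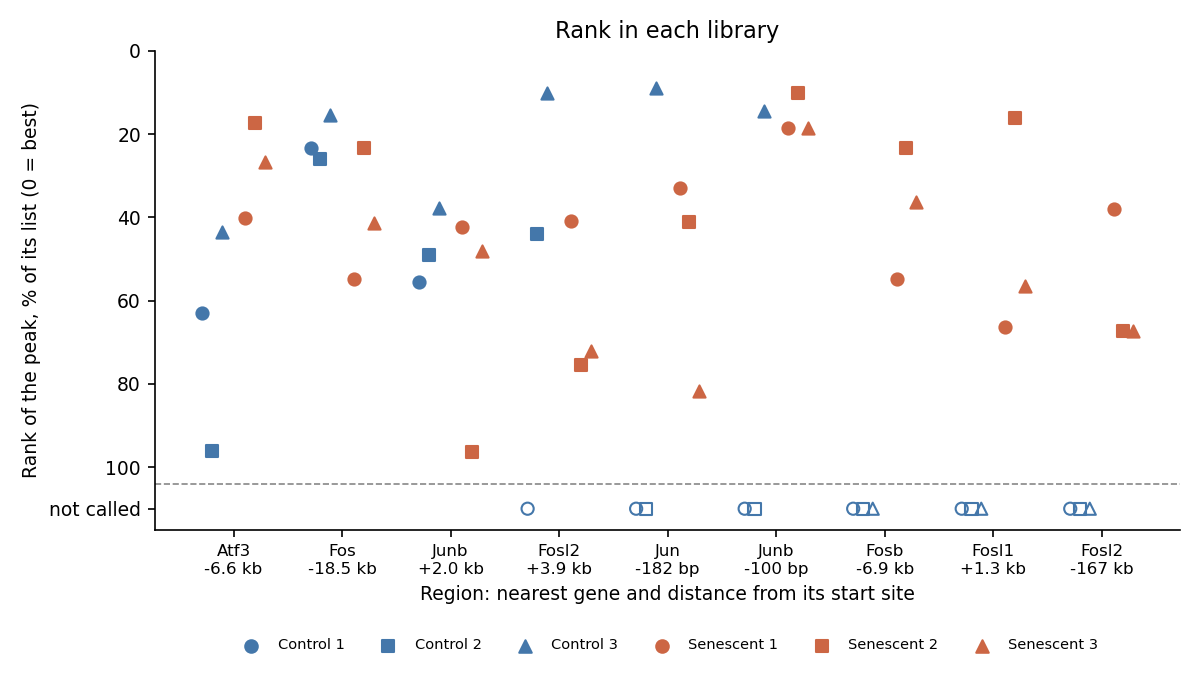
Rank of the peak, as a percent of its list (0 is best, axis inverted), in the 6 libraries for 9 regions named by gene and distance from the start site, with blue symbols for control, orange for senescent, shapes for replicates 1 to 3 and open symbols below the dashed line where no peak was called. The 3 regions on the right have open symbols for all control libraries, and at Atf3 the senescent symbols all lie above the control symbols.

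Atf3, a stress-induced subunit that mostly represses transcription as a homodimer, had 11 peaks in 4 regions. The gene has 2 annotated start sites, at chr1:191183340 and chr1:191218039, and each distance is from the nearer of them. The region called in all 6 libraries lay 6600 bp upstream of the start at 191218039, over an exon of the lincRNA D730003I15Rik (chr1:191224155-191225032). Its ranks were 63.1%, 96.2% and 43.6% in control and 40.3%, 17.4% and 26.8% in senescent libraries. Every senescent library thus ranked it better than every control library, with means of 67.6% ± 26.6 and 28.2% ± 11.5 (SD, n = 3 each) and a difference of -39.5 percentage points. The exact permutation test gave p = 0.1, the smallest it allows, and an adjusted p of 0.567, and 12.9% of the regions called in all 6 libraries had the same order, while 4.7% had the opposite one.

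The region holds 4 E-boxes and 1 AP-1 motif. Of all regions 0.196% hold 4 or more E-boxes, and of those at least 800 bp long, as this one is, 3.87% do. The peaks differed in extent. In control libraries they were 142, 221 and 236 bp wide and covered the AP-1 motif and only the E-box next to it. In senescent libraries they were 616, 704 and 447 bp wide, and those of replicates 1 and 2 covered all 4 E-boxes while that of replicate 3 covered 2. Peak width is not normalized for depth, whose part in this was not tested.

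**Figure D4:**
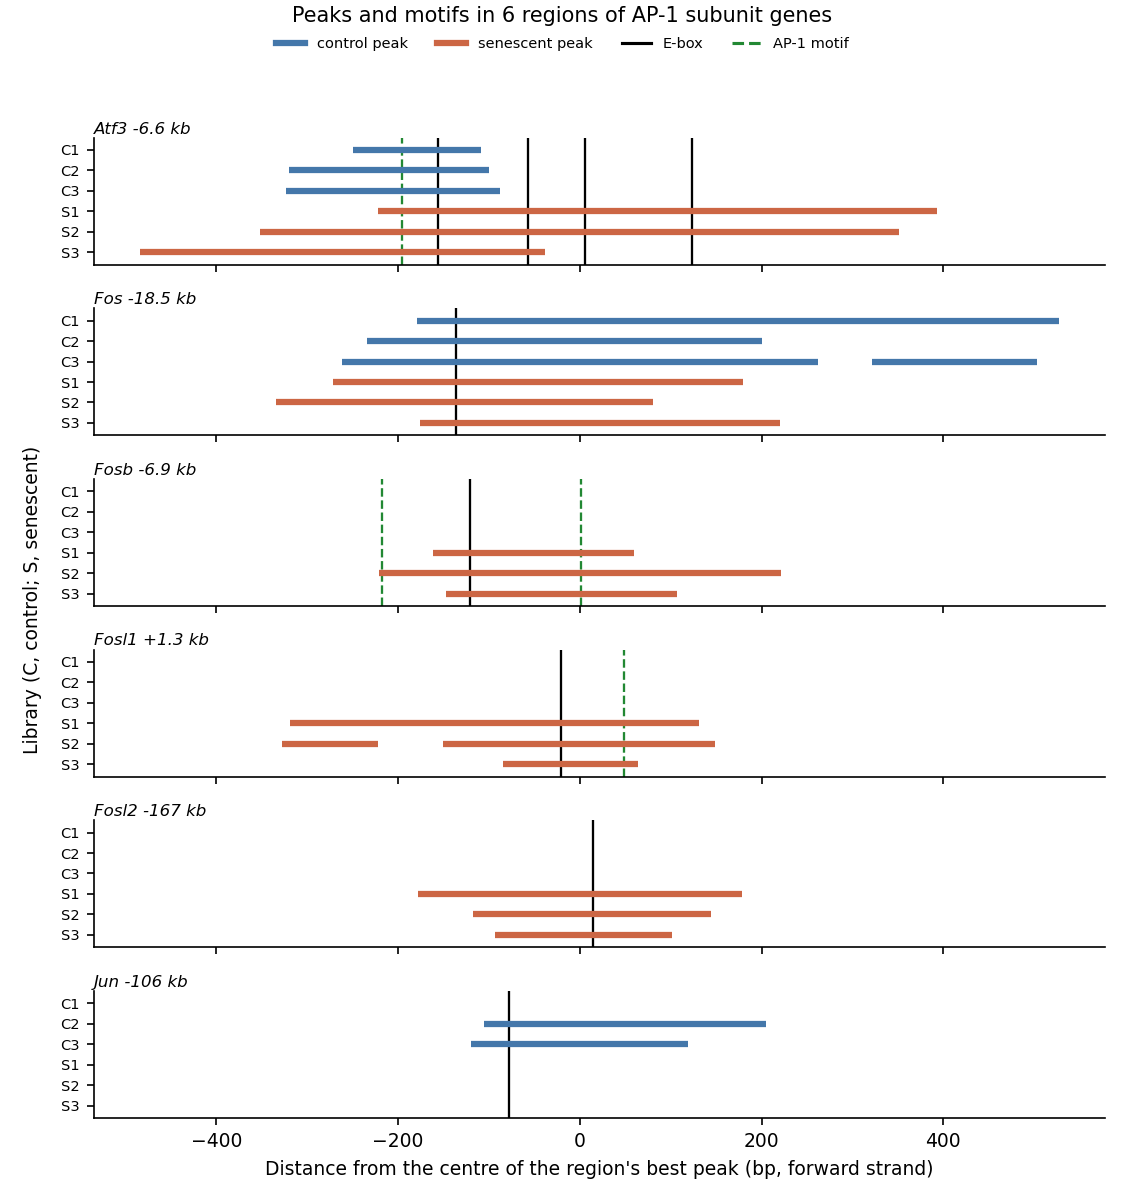
Extent of the peak in each library (C1 to C3 control in blue, S1 to S3 senescent in orange) for the 6 regions with an E-box, in bp from the centre of the best peak on the forward strand, with solid lines at E-boxes and dashed lines at AP-1 motifs. At Atf3 the control bars reach 1 of the 4 E-boxes, and at Fosb, Fosl1 and Fosl2 there are senescent bars only.

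A further pair of Atf3 regions was called in 1 group only. A promoter region at -187 bp from the start at 191183340 had a peak in senescent replicates 1 and 2 (52.4% and 36.4%). One 43868 bp upstream of the other start, at 191218039, had a peak in control replicates 1 and 3 (78.7% and 21.8%). Because control replicate 3 had its best Atf3 peak at the distant region, the best peak of the gene averaged 60.3% ± 37.3 in control and 28.2% ± 11.5 in senescent libraries (n = 3 each), and on this scale the groups overlapped (exact permutation test, p = 0.3, adjusted p = 0.689). On the rank itself they did not, with means of 2430 ± 737 in control and 1586 ± 200 in senescent libraries (exact permutation p = 0.1, adjusted p = 0.265). The rank itself was likewise better in every senescent library for 18.3% of genes called in all 6.

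Batf and Batf3, which encode small AP-1 subunits best known from lymphocytes and dendritic cells, had no peak. The nearest peak centre lay 137991 bp from the start of Batf and 22558 bp from that of Batf3, both in control replicate 3 and both nearer to another gene (Ttll5 and Nsl1). Among the 9 subunit genes matched in the RefSeq promoter table, Batf3 was the only one with CACGTG in its promoter, as had 7.15% of all promoters.

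Over the 36 regions, 3 were called in all 6 libraries (8.33%, against 6.58% of all regions), and 9 were promoter regions (25.0%, against 33.9%). Those called in at least 2 senescent and no control libraries numbered 6 (16.7%, against 9.44% of all regions), at Fosb (2), Fosl1, Fosl2, Atf3 and Junb. Those called in all 3 senescent and no control libraries numbered 3, against 3.73% of all regions, each with an E-box as described above. An E-box was held by 43.6% of all regions called in at least 2 senescent and no control libraries, and by 3 of the 6 here. Regions called in at least 2 control and no senescent libraries numbered 3, against 5.86%, at Jun (2) and Atf3, and none was called in all 3 control and no senescent libraries (1.58% of all regions). The smallest adjusted p over all regions was 1 by the exact permutation test of calls, so no region of any gene passed. Without control replicate 3, the longest control list, the 6, 3 and 3 regions of these counts became 10, 5 and 0, and without senescent replicate 2, the longest senescent list, they became 3, 3 and 4. The rule of at least 2 libraries was kept, so the group that lost a library needed 2 of 2 and the other 2 of 3. The control count was 1 without control replicate 2, and the count of regions called in every senescent and no control library was 5 without senescent replicate 3. Only 10 of the 36 regions came from a single library, 8 of them from senescent replicate 2 and 2 from control replicate 3, against 55.7% of all regions. With only the 2794 best peaks of every list, the regions called in every senescent and no control library numbered 1 in place of 3, and those in at least 2 senescent and no control libraries 3 in place of 6.

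E-box content at these genes was near that of all regions. Anywhere in the region, 6 of 36 held one (16.7%, against 19.9% of all regions), and within 100 bp of the centre 4 did (11.1%, against 16.7%). All 6 lay more than 1000 bp from a start site, and 0 of 9 promoter regions held one, against 24.1% of all promoter regions. Of the 27 regions further from a start site, 6 held one, against 17.7% of all such regions. AP-1 motifs were found in 6 regions (16.7%, against 18.5%), at Atf3 (2), Fosl2 (2), Fosb and Fosl1. They were in 1 of 9 promoter regions, against 6.17% of all promoter regions, and in 5 of 27 others, against 24.8%. E-box and AP-1 motif occurred together in 3 regions (8.33%, against 3.67%), those of Atf3, Fosb and Fosl1, but within 100 bp of the centre in 1 only (2.78%, against 2.12%). The GC box was found in 17 regions (47.2%, against 26.5%), CCAAT in 14 (38.9%, against 35%), the E-box variant CACGTT in 5 (13.9%, against 7.93%) and the cyclic AMP response element TGACGTCA in 1 (2.78%, against 1.77%). By position, the GC box was in 7 of 9 promoter regions, against 57.8% of all promoter regions. Of the 27 other regions 10 held it, against 10.4%. A match to these letters is a description of the sequence and does not show which protein was bound.

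Of 48 other genes of the pathway (AP-1 relatives, the MAP kinases upstream, their phosphatases and regulators of Fos and Jun transcription), 39 had a peak, against 36.4% of all genes. A peak in more senescent libraries was found for 18 of the 39, against 45.8% of all genes with a peak, and in more control libraries for 5, against 25.7%. Only Mef2a, a regulator of Jun transcription, had one in all 3 senescent and no control libraries, a pattern of 4.08% of all genes with a peak, with its best peak 89196 bp upstream. Of the 9 with a peak in all 6 libraries, the best mean ranks were those of Mef2d (3.10%), Mapk8, which encodes the JUN kinase JNK1 (6.11%), Maf (8.49%), Elk3 (11.9%), Nfe2l2 (13.0%) and Map2k3 (13.7%). The other 3 were Atf7 (14.2%), Srf (49.97%) and Bach2 (51.4%). Junb, Fos and Atf3 had mean ranks of 27.6%, 30.7% and 44.2%, between those of Atf7 and Srf.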

How the data were processed

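BMAL1-ChIP-seq was performed by tagmentation-assisted ChIP on 3 control and 3 senescent MAF libraries. Their 6 inputs were not used here. The authors mapped reads to mm10 with the Burrows-Wheeler Aligner, removed duplicates with Picard and called peaks for each library separately with MACS2 at an FDR of 1%. Whether the input served as control is not given in the sources used here. Deposited peak scores were taken to be −log10 q-values, a unit inferred from their minimum just above 2, and were used only to rank peaks within a list, with tied scores sharing a mean rank. Such scores grow with the depth of their library.

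Groups were taken from the sample titles. Peaks were assigned to the nearest of 41451 protein-coding start sites, and a region to the gene of its best-ranked peak. Motifs were exact matches on both strands of GRCm38. Values were compared with exact two-sided permutation tests over 20 arrangements (smallest p 0.1), run on all genes or regions with Benjamini-Hochberg adjustment, using Python 3.11.15, pandas 2.3.3, numpy 2.4.6 and samtools 1.23.1. The tests were tried on simulated lists of equal length with large planted differences. That run did not cover lists of unequal length or calls missed within a group, as found here. All 10 members were named, with every region called in at least 3 libraries or in at least 2 of just 1 group. Pathway genes were named when called in all 3 libraries of 1 group only, or as the 6 best-ranked called in all 6. The members and lists were chosen with earlier results of these data known. Alternatives were equal list lengths, scores above the median, other distances, motif windows, overlaps and start sites, and leaving out each library.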

Additional observations from a re-analysis of the deposited data

How the results depend on the processing

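No difference between groups that could be computed changed sign. Regions called in at least 2 senescent and no control against at least 2 control and no senescent libraries went from 6 against 3 to 3 against 4 without senescent replicate 2. That setting asks for 2 of 2 senescent but 2 of 3 control libraries, and leaves fewer senescent libraries to exclude a control region. Its 2 counts are therefore not on equal terms. Differences between groups in the share of the list at AP-1 subunit genes ran from 0.0689 to 0.0989 percentage points without each library in turn, and were 0.0254 with scores above the median and 0.0539 within 1000 bp; alternatives for this share, for the 3 regions called in all senescent and no control libraries and for the Atf3 region were chosen after seeing the data. Regions called in at least 2 senescent and no control libraries fell from 6 to 3 with equal peak numbers, 2 with scores above the median (against 2 on the control side) and 2 within 1000 bp, and ranged from 3 (without senescent replicate 2) to 10 (without control replicate 3). Regions called in all senescent and no control libraries fell from 3 to 1, 0 and 0 in the same order, and ranged from 3 to 5 without each library (5 without control replicate 3 or senescent replicate 3). Regions called in at least 2 control and no senescent libraries fell from 3 to 1 within 50 kb and 0 within 1000 bp, and ranged from 0 (without control replicate 3; 1 without control replicate 2) to 4. Regions with an E-box within 100 bp fell from 4 to 2 with equal peak numbers, 2 within 50 kb and 0 within 1000 bp (3 to 4 without each library), and those with an AP-1 motif to 2 with scores above the median, 0 within 1000 bp and 2 within 50 bp of the centre (4 to 5). These settings keep fewer peaks, libraries or bases. Without each library, the difference in subunit genes with a peak ran from 0.167 to 2.67, that in peaks from 2 to 12.2, and genes with a peak in all senescent and no control libraries from 0 to 1 (Fosl1, without control replicate 3). The rank differences ran from -51.5 to -25.2 percentage points for the Atf3 region, -51.5 to -14.3 for Atf3, 10.9 to 26.5 for Fos and -36.5 to -15.6 for Junb. With equal peak numbers they were 42.2 for Fos and -23.0 for Junb (exact permutation p = 0.1 each, against 0.2 and 0.3). Both restate the comparison of the rank itself, since shortening a list leaves its best ranks unchanged. Atf3 gave no value with equal peak numbers, since the shortened lists did not all keep a peak there, and no rank could be compared within 1000 bp. Ranks among scores above the median were not run.

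Deviations from the group mean correlated at 0.0992, -0.0988 and -0.0962 between same-numbered libraries over 1106 regions, and at -0.146 to 0.229 between the others. The numbers were not taken to pair libraries. Whether same-numbered libraries shared a culture or preparation cannot be told from these correlations. With the replicate number as a block, the exact sign-flip test gave p = 0.5 for Fos, Atf3 and Junb and 0.25, the smallest possible, for the Atf3 region, with differences of 18.3, -32.2, -23.7 and -39.5 percentage points as without it. With 3 libraries a group the exact test cannot go below 0.1, so a difference of any size could not have passed at 0.05, and without read counts depth is unknown.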

Other observations

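Between Fos and Batf on chromosome 12, the only other region was 1 at Jdp2, which encodes a JUN dimerization protein, 53812 bp upstream of its start, called in 1 control library and holding 1 E-box. Over the 6 libraries, the rank of the best peak of Fos was most like those of Sin3a, Lmo7 and Zfp36l1 (mean absolute differences of 3.94, 5.46 and 5.53 percentage points among 1122 genes compared). That of Junb was most like Slc47a1, Rbpj and Tle6 (2.72, 3.91 and 3.92), and that of Atf3 was most like Tspan9, Mrpl33 and Lrp1 (7.30, 7.65 and 7.93).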
